A study of Mus musculus with 49 samples.

Results

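Ctss, Cd68, Lyz2, Mpeg1, Ptprc, Lcp1, Ccl6 and Gpr65 are 8 genes of myeloid cells, the lineage that holds microglia, macrophages, monocytes and granulocytes. They were chosen by measured values of these arrays under the working name of activated myeloid cell genes. Which values were used was not stated, so every genotype difference of the 8 genes is treated as used for the choice and given as a description with no p-value. The genes were found by their symbol in the platform annotation, which gave 9 probe sets, 2 of them for Lcp1, out of 22626 probe sets tested and 11807 named genes.

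Levels were read on 49 arrays of laser-captured CA1, CA3 and dentate gyrus (DG) from 17 female mice aged 6.1 months. The rTg4510 mice carried both a CaMKIIα promoter-driven tTA transgene and a TRE-responsive transgene for human tau with the P301L change, the tTA mice carried the activator transgene without the tau transgene, and the double-negative (DN) mice carried neither. The tau responder line was kept on FVB/N and the activator line on another inbred background. In CA1 there were 6 DN, 5 tTA and 5 rTg4510 mice, in CA3 5, 5 and 6, and in DG 6, 5 and 6. The replicate is the mouse, since most mice gave an array for each subfield. The CaMKIIα promoter is active mainly in forebrain excitatory neurons. The methods describe the controls as littermates, but the DN mouse numbers all lie above those of the tTA and rTg4510 mice. The labels name no cohort or batch, and any that goes with the numbers cannot be told apart from genotype in a comparison with DN mice.

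Microglia are the resident macrophages of the brain, and they take up debris and dying cells into lysosomes, where proteases and hydrolases break it down. When they react to injury or protein deposits, they usually raise lysosomal and antigen-handling genes, chemokines and surface receptors. Several of the 8 genes are not specific to a reacting state: Ctss, Ptprc and Lcp1 are also expressed by resting microglia or by leukocytes in general. The captured layers hold mostly neurons, and in such bulk samples fewer cells of a type and less RNA per cell cannot be told apart.

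Ctss encodes cathepsin S, a lysosomal protease that cuts the invariant chain in antigen presentation. Cd68 encodes a heavily glycosylated lysosomal membrane protein of macrophages. Lyz2 encodes lysozyme M, a secreted enzyme that cleaves bacterial cell walls, and Mpeg1 encodes perforin-2, a pore-forming protein of macrophages. Ptprc encodes CD45, the receptor tyrosine phosphatase of white blood cells, and Lcp1 encodes L-plastin, which bundles actin filaments in leukocytes. Ccl6 encodes a CC chemokine and Gpr65 a proton-sensing G protein-coupled receptor.

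The start regions of these genes are shown because the letters AGGAAGT recur in them. These letters contain the GGAA core read by ETS family factors such as PU.1. They were 1 of 7 strings searched and were marked because they recur, so their counts below describe these windows and support nothing. RefSeq promoter windows of 250 bases before to 50 bases after an annotated start (build GRCm38.p6) were found for all 8 genes, 10 windows in all. Read on both strands, AGGAAGT lies in 5 of the 10 windows, from 4 of the 8 genes, while 9.35% of all 32851 promoter windows hold it. The 2 Ptprc windows overlap, and 1 of the sites lies in both. The windows with a match belong to Ctss, Lyz2, Ptprc and Ccl6, and Mpeg1 is printed as a gene without one. Capitals mark AGGAAGT, or ACTTCCT where it lies on the other strand.
Ctss, chr3:95526536-95526835, plus strand: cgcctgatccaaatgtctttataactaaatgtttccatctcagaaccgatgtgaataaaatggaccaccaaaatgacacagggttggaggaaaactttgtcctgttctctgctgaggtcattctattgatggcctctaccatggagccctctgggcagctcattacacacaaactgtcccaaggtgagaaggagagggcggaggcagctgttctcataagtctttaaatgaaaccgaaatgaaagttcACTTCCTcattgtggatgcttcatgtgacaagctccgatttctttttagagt
Lyz2, chr10:117282223-117282522, minus strand: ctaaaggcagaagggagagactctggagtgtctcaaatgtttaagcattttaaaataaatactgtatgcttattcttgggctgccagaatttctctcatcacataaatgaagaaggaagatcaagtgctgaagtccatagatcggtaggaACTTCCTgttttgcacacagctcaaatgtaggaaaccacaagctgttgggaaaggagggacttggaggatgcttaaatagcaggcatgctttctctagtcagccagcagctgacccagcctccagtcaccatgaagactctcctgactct
Ptprc, chr1:138175256-138175555, minus strand: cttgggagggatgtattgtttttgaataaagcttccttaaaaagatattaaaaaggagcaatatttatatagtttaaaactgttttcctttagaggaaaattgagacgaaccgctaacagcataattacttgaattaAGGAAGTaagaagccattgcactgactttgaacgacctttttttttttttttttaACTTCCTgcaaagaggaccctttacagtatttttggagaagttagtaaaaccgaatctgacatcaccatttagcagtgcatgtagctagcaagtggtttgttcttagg
Ccl6, chr11:83593038-83593337, minus strand: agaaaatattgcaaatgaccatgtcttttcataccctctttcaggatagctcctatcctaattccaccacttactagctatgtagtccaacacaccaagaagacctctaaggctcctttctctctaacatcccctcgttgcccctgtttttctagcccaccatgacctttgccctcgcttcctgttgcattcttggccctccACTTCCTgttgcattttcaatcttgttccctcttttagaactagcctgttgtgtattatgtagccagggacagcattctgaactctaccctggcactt
Mpeg1, chr19:12460520-12460819, plus strand: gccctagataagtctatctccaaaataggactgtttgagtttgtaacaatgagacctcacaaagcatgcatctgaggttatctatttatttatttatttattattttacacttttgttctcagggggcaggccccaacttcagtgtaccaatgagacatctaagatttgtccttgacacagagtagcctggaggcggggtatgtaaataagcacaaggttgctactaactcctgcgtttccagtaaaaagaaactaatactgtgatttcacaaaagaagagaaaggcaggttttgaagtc
Counted from the annotated start, the first base of the match lies at -2 in Ctss, -100 in Lyz2 and -48 in Ccl6, and at -113 and -58 in Ptprc. The related strings GAGGAA and ACAGGAA, which can overlap it, are in windows of 4 and 3 of the 8 genes and in 28.3% and 8.67% of all windows. TGACTCA, the AP-1 string, is in 1 of the 8 genes, Cd68, with 2 matches, against 5.2% of all windows. TATAAA is in 3 of the 8 genes against 13.6%, GGGCGG in 3 against 35.7%, and CACGTG in none against 7.15%. A match is a string in a window, and no binding was measured here.

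Values are log2 levels from robust multi-array averaging (RMA), a method that removes background, equalises the arrays and joins the probes of a set. The median over all probe sets was 5.04. Ctss lay well above it with a mean over arrays of 9.77, and Mpeg1 averaged 5.44. The remaining 6 genes averaged below that median, where a fold change on the array is compressed, so their differences may understate the change in RNA. Lyz2 is read by a probe set that is not specific to 1 transcript, and the probe set of Lyz1, its neighbouring near-copy, had group means of 2.71 to 2.89. Whether the Lyz2 probe set also read other transcripts was not tested.

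**Figure D1:**
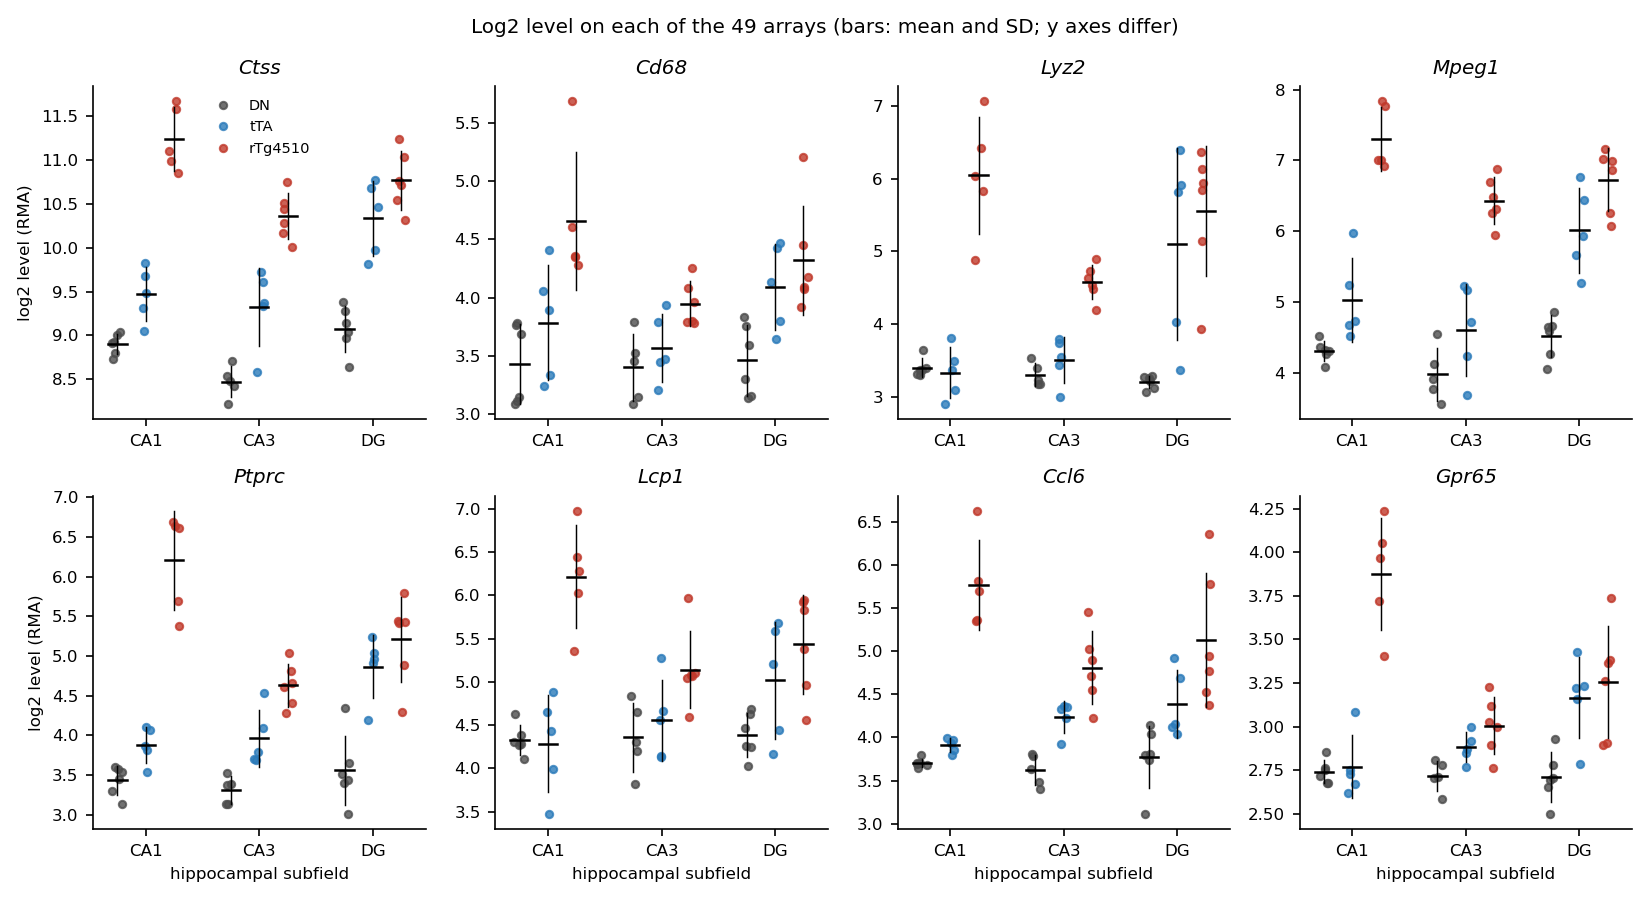
Log2 level (y axis, RMA) of each gene on each array by subfield (x axis), with DN, tTA and rTg4510 mice in different colours and bars for the mean and SD of 5 or 6 mice. Lcp1 is shown by its brighter probe set. All 8 genes have their highest group mean in rTg4510 CA1, and the y axes differ between genes.

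The clearest separation of rTg4510 from tTA mice was in CA1. Ctss stood at 10.85, 10.98, 11.10, 11.58 and 11.67 in the 5 rTg4510 mice and at 9.05, 9.31, 9.49, 9.67 and 9.83 in the 5 tTA mice. The groups did not overlap, and the gap was 1.77 ± 0.16 (SE) on the log2 scale, or 3.40-fold.

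Mpeg1 stood at 6.92, 6.999, 7.007, 7.77 and 7.84 in rTg4510 CA1 against 4.51, 4.67, 4.73, 5.24 and 5.97 in tTA CA1, a difference of 2.28 ± 0.25. Lyz2 had the largest difference of the 8 genes, 2.71 ± 0.28 or 6.55-fold, with rTg4510 values of 4.88, 5.83, 6.04, 6.42 and 7.06 and tTA values of 2.90, 3.10, 3.38, 3.49 and 3.82. Lyz2 also spread most among the rTg4510 mice, with an SD of 0.80, and its lowest rTg4510 mouse still lay above every tTA mouse.

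Cd68 was the only 1 of the 8 genes whose rTg4510 and tTA mice overlapped in CA1. Its rTg4510 values in CA1 were 4.28, 4.35, 4.36, 4.61 and 5.68 against tTA values of 3.24, 3.34, 3.89, 4.05 and 4.40. The difference was 0.87 ± 0.27, and 1 rTg4510 mouse stood far above the other 4. Against DN mice in CA1, Cd68 was 1.23 ± 0.26 higher in rTg4510 mice, with the groups apart.

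Ptprc was 2.32 ± 0.22 higher in rTg4510 CA1, with values of 5.37, 5.69, 6.62, 6.64 and 6.69 against 3.54, 3.82, 3.87, 4.07 and 4.11. Lcp1 was 1.93 ± 0.27 higher by its brighter probe set and 2.01 ± 0.14 higher by the other, so the 2 probe sets differed little in CA1. Ccl6 was 1.86 ± 0.17 higher, with a tTA range of only 3.80 to 3.99. Gpr65, the dimmest of the 8 genes, was 1.10 ± 0.13 higher at a mean of 3.88 against 2.77.

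In CA1, 7 of the 8 genes, all but Cd68, had every rTg4510 mouse above every tTA mouse. Over all probe sets tested, 3.39% separated in this way. The same 7 genes passed the threshold of the limma fit in the higher direction, which 6.01% of all probe sets did. Leaving out single mice gave 7 or 8 genes, so Cd68 also passed without some of the mice. The median difference over the 8 genes was 1.89, beside -0.03 over all probe sets. The genes may have been chosen for such differences, so these counts describe them and support nothing.

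In CA3 the differences were smaller and less even. Mpeg1 was 1.82 ± 0.26 higher in rTg4510 than in tTA mice, at 5.94 to 6.88 over 6 mice (median 6.40) against 3.68, 4.23, 4.71, 5.17 and 5.23. Lyz2 was 1.07 ± 0.14 higher and Ctss 1.03 ± 0.18 higher, and in all of these genes the groups were apart.

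Ptprc was higher by 0.67 ± 0.16, Lcp1 by 0.59 ± 0.24, Ccl6 by 0.57 ± 0.17, Cd68 by 0.38 ± 0.15 and Gpr65 by 0.12 ± 0.08. For these 5 genes the mice of the groups overlapped. The 3 genes whose groups did not overlap compare with 0.968% of all probe sets, and 3 passed the limma threshold in the higher direction against 0.641%. The median over the 8 genes was 0.63.

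In DG no gene separated rTg4510 from tTA mice. The differences ran from 0.09 for Gpr65 to 0.74 for Ccl6, with a median of 0.42, and the second Lcp1 probe set stood at -0.04 ± 0.17. Of the 8 genes, 0 passed the limma threshold, as did 0.446% of all probe sets in the higher direction, and 0 had groups apart, as did 0.977%. The largest of them relative to its error was Mpeg1, at 0.72 ± 0.25.

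**Figure D2:**
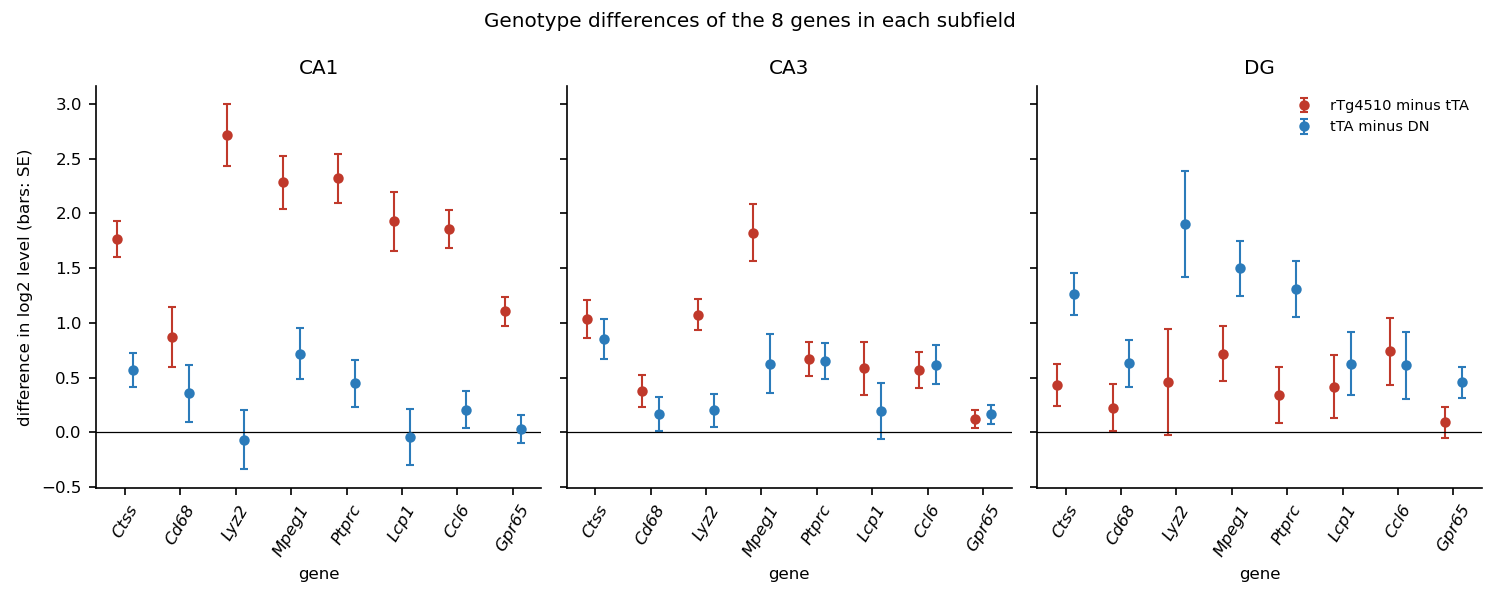
Difference in log2 level (y axis, bars are SE) of each of the 8 genes (x axis) in CA1, CA3 and DG, for rTg4510 minus tTA and for tTA minus DN. The rTg4510 minus tTA points are highest in CA1 (median 1.89) and the tTA minus DN points in DG (median 0.94).

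The DG of tTA mice differed from that of DN mice, although tTA mice carry no tau transgene. Ctss stood at 9.81, 9.97, 10.46, 10.68 and 10.76 in tTA DG, and at 8.64 to 9.38 (median 9.09) in the 6 DN mice, a difference of 1.26 ± 0.19. Mpeg1 was 1.497 ± 0.25 higher and Lyz2 1.899 ± 0.48 higher, and all 3 genes had their groups apart.

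Lyz2 was uneven within tTA DG. Its values were 3.37, 4.04, 5.82, 5.91 and 6.39, so 4 mice lay inside the rTg4510 DG range of 3.94 to 6.36 or just above it, while the lowest lay near the DN range of 3.08 to 3.29. Its SD in tTA DG was 1.32, against 0.09 in DN DG.

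Ptprc was 1.31 ± 0.26 higher in tTA DG, with its lowest tTA mouse at 4.19 below the highest DN mouse at 4.34. Cd68 was 0.63 ± 0.22, Lcp1 0.63 ± 0.29, Ccl6 0.61 ± 0.30 and Gpr65 0.46 ± 0.14 higher. The second Lcp1 probe set was 0.71 ± 0.17 higher and passed the limma threshold, which the brighter one did not. Of the 8 genes, 5 passed the limma threshold against 7.22% of all probe sets in the higher direction, and 3 had groups apart against 4.39%. With the difference between the 3' and 5' Actb probe sets, a measure of RNA integrity, as a covariate, 2 passed. Its medians in DG were -0.31 in DN and -0.59 in tTA mice, and its part in the result was not tested. The median was 0.94, beside 0.03 over all probe sets.

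In CA1 the tTA minus DN differences were small. Mpeg1 was 0.72 ± 0.24 and Ctss 0.57 ± 0.16 higher, with the lowest tTA mouse for Ctss at 9.05 and the highest DN mouse at 9.04. Lyz2 stood at -0.07 ± 0.27 and Lcp1 at -0.04 ± 0.26, and the median was 0.28. Here 2 of the 8 genes passed the threshold against 7.31% of all probe sets, and 2 had groups apart against 5.52%. No gene passed without the DN mouse with the lowest Ctss level (8.74), without the tTA mouse with the lowest Lyz2 level (2.90) or without the tTA mouse with the highest Ctss level (9.83), and 0 of the 8 genes passed with Actb as a covariate. The Actb difference had medians of -0.43 in DN, -0.72 in tTA and -0.48 in rTg4510 CA1, and its part in the result was not tested.

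In CA3, Ctss was 0.85 ± 0.18, Ptprc 0.65 ± 0.17, Mpeg1 0.63 ± 0.27 and Ccl6 0.62 ± 0.18 higher in tTA than in DN mice, and the other 4 genes by 0.16 to 0.20. The median was 0.41. Of the 8 genes, 3 passed the threshold against 4.12% of all probe sets, and 2 had groups apart against 4.56%. Without the DN mouse with the lowest Mpeg1 level (3.55) 1 gene passed, as in the model of 9 groups with the mouse as a random replicate block and with Actb as a covariate. The 2 Lcp1 probe sets differed here, at 0.19 ± 0.25 and 0.80 ± 0.22.

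Against DN mice, the rTg4510 differences shared the same DN samples as those above. The median over the 8 genes was 2.20 in CA1, 1.23 in CA3 and 1.5015 in DG. In CA1 Mpeg1 had the largest difference of the 8 genes, at a mean of 7.31 against 4.31, and Ptprc was 2.77 ± 0.21 higher. Gpr65 had the smallest difference in each subfield, at 1.13 ± 0.12 in CA1, 0.29 ± 0.08 in CA3 and 0.55 ± 0.14 in DG.

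The order of the levels was similar among genes. Read by the brighter probe set, all 8 genes had their highest group mean in rTg4510 CA1 and the next highest in rTg4510 DG, and between these the mice overlapped for all 8 genes. The second Lcp1 probe set was an exception, with a mean of 3.97 in rTg4510 DG, below 4.51 in rTg4510 CA3, and with its CA1 values of 5.17 to 5.79 apart from its DG values of 3.68 to 4.15. The mean over the 8 genes ran from 5.95 to 6.92 in rTg4510 CA1, 5.16 to 5.503 in rTg4510 CA3 and 5.16 to 6.24 in rTg4510 DG. In tTA mice it ran from 4.47 to 4.69 in CA1, 4.40 to 4.72 in CA3 and 5.04 to 5.78 in DG, so tTA DG lay wholly above the other tTA subfields. In DN mice it stayed between 4.02 and 4.66 in the 3 subfields.

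The difference of the genotype differences between subfields was read from 1 model over the 9 groups, with the mouse as a random term. For rTg4510 minus tTA, CA1 exceeded CA3 in 8 of 8 genes with a median of 1.13, and CA1 exceeded DG in 8 of 8 genes with a median of 1.41. For tTA minus DN, DG exceeded CA3 in 7 of 8 genes with a median of 0.45. These use values that may have chosen the genes and carry no test.

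**Figure D3:**
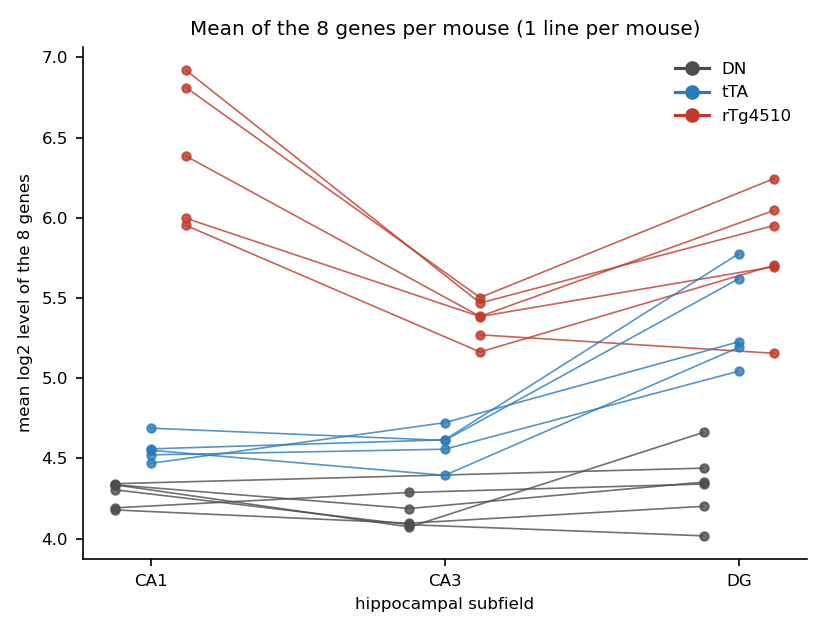
Mean log2 level of the 8 genes (y axis) in each subfield (x axis), with 1 line per mouse and colours for DN, tTA and rTg4510 mice. The rTg4510 lines are highest in CA1 (5.95 to 6.92), and the tTA lines are highest in DG (5.04 to 5.78).

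The DN mice give the levels of the genes in the absence of both transgenes. Their arrays enter the tTA minus DN and rTg4510 minus DN differences, which may have chosen the genes, so their subfields are also compared with no p-value. Of the 8 genes, 0 passed the limma threshold between CA1 and CA3, where 12.9% of all probe sets did in either direction, 0 between CA1 and DG against 17.5%, and 1 between CA3 and DG against 21.7%. That gene was Ctss, which was lower in DN CA3 than in DN DG by 0.60 ± 0.16 on the log2 scale, with 5 CA3 values of 8.22 to 8.71 and 6 DG values of 8.64 to 9.38, so the groups overlapped slightly. Ctss was also 0.42 ± 0.16 higher in DN CA1 than in CA3, with CA1 above CA3 in all 5 mice that gave both, and Mpeg1 stood at -0.53 ± 0.24 for CA3 minus DG. The Ctss difference between CA1 and CA3 passed with the mouse as a fixed replicate block, with array weights, with DN arrays only or with dim probe sets left out, and the Mpeg1 difference with array weights or DN arrays only. At 5 or 6 mice a missed threshold does not show that levels were equal.

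The mice varied together in part. After removal of each group's mean, the genes correlated over 49 arrays with an r between pairs of -0.11 to 0.63 and a median of 0.29 over the 28 pairs. Ctss followed the mean of the other 7 most closely, with an r of 0.68, and Cd68 least, with an r of 0.16. The points share mouse, capture and array, and these values are descriptions. In rTg4510 CA1, 1 mouse was highest for 5 of the 8 genes and another lowest for 5. In rTg4510 DG, 1 mouse, which gave no CA1 array, was lowest for 6 of the 8 genes, and in DN DG 1 mouse was highest for 6.

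The genes whose within-group deviations were most like the mean of the 8 were Oat with an r of 0.77, Cyp2d22 with 0.75, Ctsz with 0.74, and C4b and Pros1 with 0.73 each, over 49 arrays. Ctsz encodes the lysosomal protease cathepsin Z and C4b the complement component C4. Without the rTg4510 arrays the r of these 5 genes over 32 arrays lay between 0.56 and 0.61. Their ranks among the named genes outside the 8 then ran from 39 for Pros1 to 90 for Ctsz, so their place as closest rests on the rTg4510 arrays. C4b was 4.22 higher in rTg4510 than in tTA CA1 and 2.87 higher in tTA than in DN DG, and Oat, a mitochondrial aminotransferase of ornithine, was 0.79 and 0.28 higher in these comparisons.

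Beyond the 8 genes, 4 gene families that share their roles were read from lists, with the 8 left out. Of 23 measured genes of lysosomal enzymes and membrane proteins, 17 rose and 0 fell in rTg4510 CA1 against tTA, with a median difference of 0.82. They included Grn, which encodes progranulin, at 0.89 ± 0.10 (limma adjusted p = 0.00019), and Cst3, the cysteine protease inhibitor cystatin C, at 0.64 ± 0.12 (adjusted p = 0.00387). Of 30 genes of leukocyte signalling and actin, 11 rose, among them Cd53, a tetraspanin of leukocytes, at 1.07 ± 0.29 (adjusted p = 0.0238), while Coro1a, an actin regulator, stood at -0.13 ± 0.12 (adjusted p = 0.562).

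The chemokine list was mixed in CA1. Of 28 genes, 7 rose and 2 fell, and the median was 0.01. Those that rose were Ccl3, Ccl4, Ccl5, Ccl9, Cxcl5, Cxcl13 and Cxcl14, and those that fell were Ccl27a (-0.76 ± 0.11, adjusted p = 0.000596) and Cx3cl1 (-0.82 ± 0.22, adjusted p = 0.0238), the neuronal ligand of the microglial receptor CX3CR1. Of 15 leukocyte G protein-coupled receptors, 3 rose: Gpr34, the UDP receptor P2ry6 and the complement C3a receptor C3ar1, which was 2.01 higher. Ptafr, the receptor for platelet-activating factor, stood at -0.25 ± 0.12 (adjusted p = 0.216).

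Across the 4 families, 38 of 96 measured genes rose and 2 fell in CA1, where 6.01% of all probe sets were higher, and 22 rose with only the 2 genotypes fitted. In CA3 2 rose and in DG 0, where 0.641% and 0.446% of all probe sets were higher. At an unadjusted p under 0.05 the limma fit had 18 higher and 3 lower in CA3, and 8 higher and 3 lower in DG. Leaving out single mice moved the CA3 count between 0, for example without the rTg4510 mouse with the highest Ctss level (10.75), and 5, without the rTg4510 mouse with the lowest (10.01), and without 1 rTg4510 mouse the DG count was 2. The 2 in CA3 were Fcgr3, an immunoglobulin receptor, and C3ar1. For tTA against DN, 10 rose and 2 fell in CA1, 9 rose in CA3 and 23 rose in DG, of which 10 were lysosomal and 9 were of signalling and actin. Over all probe sets 7.31%, 4.12% and 7.22% were called higher, so the CA1 count lies near the background. With Actb as a covariate, 1 rose in CA1 and 9 in DG, and without the DN mouse with the highest Cd68 level (3.78), 4 rose in CA1.

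The name given to the 8 genes was checked against markers of cell types, listed apart from them. Of 17 measured homeostatic microglia genes, 11 rose and 0 fell in rTg4510 CA1 against tTA, with a median of 0.91. In CA3 2 rose and in DG 0. Over all probe sets, 6.01% were called higher in CA1, 0.641% in CA3 and 0.446% in DG. Tyrobp, the adaptor of microglial surface receptors, rose by 1.97 ± 0.23 in CA1 (adjusted p = 0.000212). Among the 6 that did not pass in CA1 were genes used to mark resting microglia: Tmem119 stood at -0.44 ± 0.18, Sall1 at 0.01 ± 0.08, P2ry12 at 0.12 ± 0.15, Selplg at 0.17 ± 0.21 and Fcrls at 0.30 ± 0.20. All but 1 of the other genes of the list rose. These others include Cx3cr1, Csf1r and Olfml3, and also Tyrobp, Trem2, Aif1, C1qa, C1qb and C1qc. The listed genes were thus found on both sides, and the name of the list does not show which state the cells were in. At an unadjusted p under 0.05 the limma fit had 11 of the 17 higher and 1 lower in CA1, and 1 higher in DG. With only the 2 genotypes fitted, 7 rose in CA1 and 0 in CA3, and with Actb as a covariate 7 rose in CA1. The summed level of the list was 10.84 to 11.91 in rTg4510 CA1 and 9.72 to 10.31 in tTA CA1, on the log2 scale. In tTA against DN mice, 4, 8 and 9 of the 17 rose in CA1, CA3 and DG, with medians of 0.49, 0.64 and 0.70. The shares of all probe sets called higher were 7.31%, 4.12% and 7.22%. Leaving out single mice gave 2 to 6 in CA1, with 2 without the tTA mouse with the lowest Lyz2 level (2.90), and 5 to 8 in CA3, with 5 without the DN mouse with the lowest Mpeg1 (3.55), Cd68 (3.09) or Ctss (8.22) level, and Actb as a covariate left 0 in CA1, while 8 rose there with only the 2 genotypes fitted. For rTg4510 against tTA the CA3 count ran from 1 to 3, with 1 without the rTg4510 mouse with the highest Lyz2 level (4.89) or the tTA mouse with the lowest Mpeg1 (3.68) or Ctss (8.59) level. A reacting state and a larger number of microglia cannot be told apart on these arrays.

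For other blood-derived cells, few markers passed between rTg4510 and tTA mice. Of 10 border macrophage genes, 13 T and NK cell genes and 7 B cell genes, none passed for rTg4510 against tTA in any subfield, and of 11 neutrophil genes 0 rose and Camp fell in CA1. At an unadjusted p under 0.05 the limma fit for CA1 had 1 border macrophage, 0 T and NK cell, 2 B cell and 1 neutrophil gene higher. All 10 border macrophage, all 11 neutrophil, 11 of 13 T and NK cell and 6 of 7 B cell genes averaged below the median of all probe sets, so a change there could be missed. The neutrophil list summed to 6.60 to 6.79 in rTg4510 CA1 and 6.68 to 6.93 in tTA CA1, and the border macrophage list to 6.74 to 7.35 and 6.82 to 7.16. Of 7 monocyte genes, Fn1 rose and Nr4a1 fell in CA1, with a list median of 0.38. Which cells these changes came from was not tested. At an unadjusted p under 0.05, 3 of the 7 were higher and 1 lower in the limma fit. The monocyte list summed to 8.66 to 9.26 in rTg4510 CA1 and 8.59 to 9.06 in tTA CA1. For rTg4510 against tTA in CA1, 6.01% of all probe sets were called higher. In tTA against DN DG, 2 of the 7 B cell genes rose and 5 did not pass, with a list median of 0.11. Blnk, a B cell receptor adaptor, rose by 1.71 ± 0.25 (limma adjusted p = 0.000235) and Cd79a by 0.34 ± 0.09. Of the 7 monocyte genes, 2 rose there, Ly6c1 by 0.97 ± 0.20 and S100a4 by 1.199 ± 0.37. In DG 0 border macrophage and 0 neutrophil genes passed, and Prf1 of the T and NK cell list fell. The source cells of these changes were not tested. At an unadjusted p under 0.05, 0 border macrophage and 0 neutrophil genes were higher there. Ly6c1 is also on the endothelial list and is counted in both, so its rise is not particular to monocytes. In tTA against DN CA1, each of these 5 lists had 1 gene that rose, and in CA3 none did. Over all probe sets, 7.31% were called higher in CA1, 4.12% in CA3 and 7.22% in DG. The CA1 and DG calls for tTA against DN over the 5 lists lie near that background.

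Genes of other cell types of the tissue also differed between the genotypes. Of 7 astrocyte genes, 6 rose in rTg4510 CA1, 1 in CA3 and 0 in DG, and for tTA against DN 4, 5 and 6 rose. Of 7 oligodendrocyte genes, 4 rose in rTg4510 CA1, and 4 of 6 interneuron genes did, while all 4 measured CA1 pyramidal genes fell, among them Wfs1 at -1.25 ± 0.16 (adjusted p = 0.000381). Of 8 endothelial genes, 2 rose in rTg4510 CA1, and 2 in CA1 and 3 in DG for tTA against DN. Ly6c1, also on the monocyte list, is among those of tTA against DN in CA1 and in DG. Over all probe sets, 6.01% were called higher in CA1, 0.641% in CA3 and 0.446% in DG for rTg4510 against tTA. For tTA against DN these shares were 7.31%, 4.12% and 7.22%. Within groups, the mean of the endothelial list had an r of 0.62 with the mean of the 8 genes over 49 arrays, the astrocyte list 0.65, the microglia list 0.77 and the oligodendrocyte list 0.12. Hba-a1, a red blood cell haemoglobin, was higher in tTA than in DN mice by 1.54 in CA1, 1.40 in CA3 and 1.45 in DG. The part of these cells in the levels of the 8 genes was not tested.

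**Figure D4:**
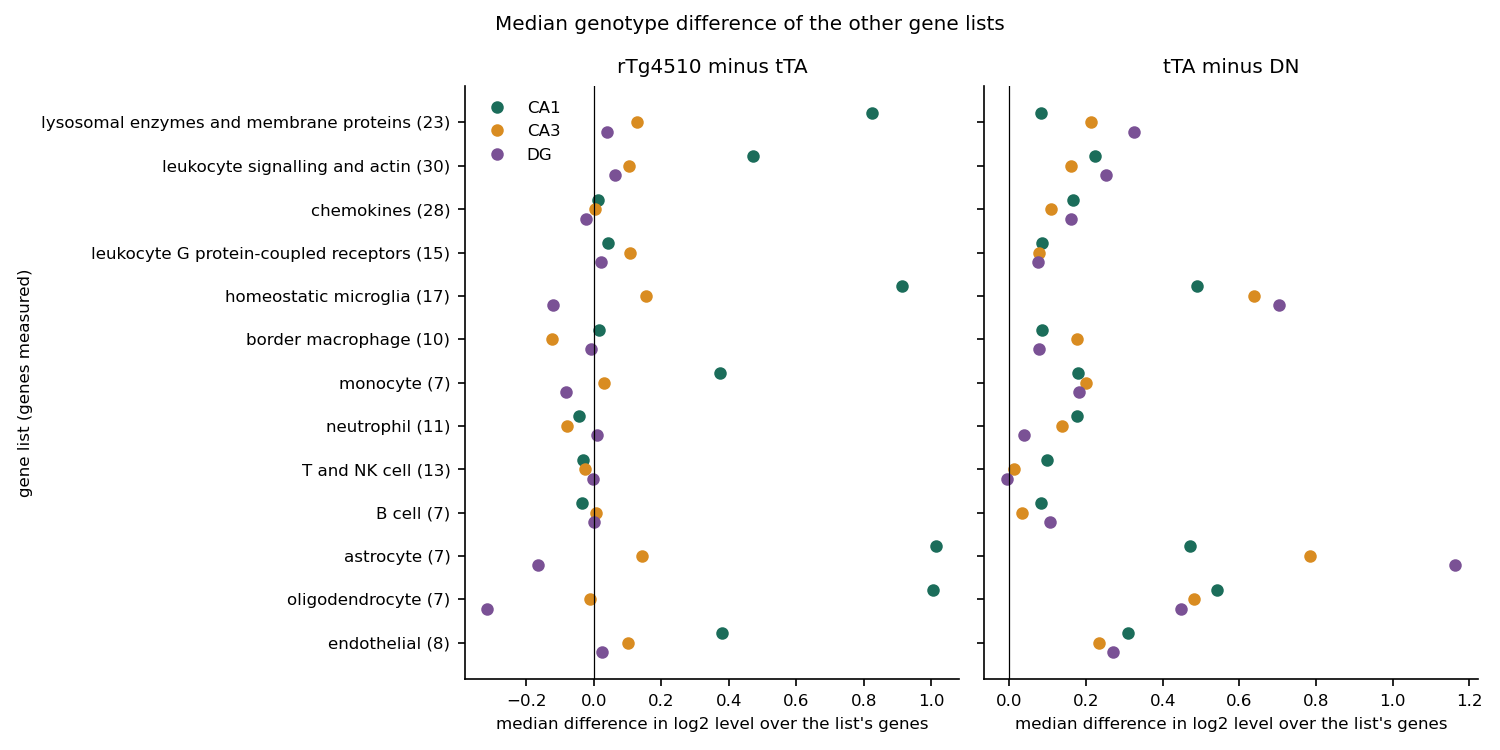
Median difference in log2 level (x axis) over the measured genes of each list (y axis, number of genes in brackets), by subfield, for rTg4510 minus tTA and for tTA minus DN. For rTg4510 minus tTA, the astrocyte, oligodendrocyte, microglia and lysosomal lists have CA1 medians of 1.02, 1.01, 0.91 and 0.82, each above their CA3 and DG medians, and T and NK cell genes lie near 0.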

How the data were processed

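RNA from laser-captured CA1, CA3 and DG layers was amplified, biotin-labelled and hybridised to Affymetrix mouse arrays by the authors, who deposited log2 values summarised per probe set by RMA (version not given). RMA makes arrays comparable in overall distribution, so each level is relative to the other RNA of its array. The number of arrays limits the precision.

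Of 22716 probe sets, 90 controls were left out, and 22626 were tested without a filter on dim ones. The platform annotation gave 1 symbol for 18003 probe sets, several for 287 and none for 4336. A gene was read by its probe set with the highest mean. Within each subfield, 3 genotypes were fitted with limma 3.58.1 (R 4.3.3) and Benjamini-Hochberg adjustment over all probe sets, called at 0.05. DN subfields were compared in a model of all 9 groups with the mouse as a random block, since arrays of 1 mouse deviated together (median r of 0.119 over 47 pairs, against -0.00146 between mice). Both kinds of fit were tried on simulated data, for rTg4510 against tTA in CA1 and for CA3 against DG in DN mice, and the other comparisons were not. The 8 genes and the lists were chosen with earlier results of these data known. Named list genes are the 2 with the highest mean of each list, those needed to complete a count of 5 or fewer, and the 5 genes most like the 8. Other list genes were named after their values were seen. Alternatives were other samples, weights, normalization, a filter, a covariate and leaving out each mouse.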

Additional observations from a re-analysis of the deposited data

Results flagged for a closer look

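In 5 of the 81 sets of values formed by 9 member probe sets and 9 groups, the highest mouse stood apart from the rest by the gap test of Dixon at its 95% limit, and chance gives about 1 such set in 20. Cd68 in rTg4510 CA1 stood at 5.68 in 1 mouse, with the next mouse at 4.61. Lyz2 in DN CA1 stood at 3.65 in 1 mouse, with the next at 3.40. The brighter Lcp1 probe set stood at 5.97 in 1 rTg4510 CA3 mouse, with the next at 5.10, and the other Lcp1 probe set at 3.61 in 1 DN DG mouse, with the next at 3.32. Gpr65 in tTA CA1 stood at 3.08 in 1 mouse, with the next at 2.75.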

How the results depend on the processing

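In these settings the medians over the 8 genes kept their direction. Leaving out the dim probe sets left only Ctss and Mpeg1 of the 8 genes and 28 of the 96 family genes. It gave tTA minus DN medians of 0.64 (CA1), 0.74 (CA3) and 1.38 (DG), rTg4510 minus DN medians of 2.67, 2.17 and 1.95, and a rTg4510 minus tTA median of 1.43 in CA3. Of the 8 genes, it called 2 in CA1 for rTg4510 against tTA, 1 in CA3 and 2 in DG for tTA against DN, and 1 between DN CA1 and CA3. Of the family genes, it called 19 in CA1 and 1 in CA3 for rTg4510 against tTA. A second quantile normalization gave a tTA minus DN median of 0.20 and 1 gene in CA1, and the mean of all probe sets of a gene a median of 0.56 in CA3.

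With only the 2 genotypes compared, 22 family genes were called in CA1 and 0 in CA3 for rTg4510 against tTA, and 4 of the 8 genes in CA1 for tTA against DN. Array weights and the methods' least significant difference test each called 0 family genes in CA3 for rTg4510 against tTA. With Actb as a covariate, tTA against DN called 0 of the 8 genes for CA1, 1 for CA3 and 2 for DG, with 1 family gene for CA1 and 9 for DG. In the model of 9 groups with the mouse as a random replicate block, 1 of the 8 genes was called in CA3 for tTA against DN and 1 family gene in DG for rTg4510 against tTA. The cause of these changes was not tested.

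Between DN CA1 and CA3, 1 gene, Ctss, was called with the mouse as a fixed replicate block, with array weights or with DN arrays only, and between DN CA3 and DG 2 genes, Ctss and Mpeg1, with array weights or DN arrays only. With no replicate block, and without any 1 DN mouse, the DN counts stayed at 0, 0 and 1.

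Leaving out each mouse of a subfield, the counts of the 8 genes for tTA against DN ran over CA1 from 0 to 2, over CA3 from 1 to 3 and over DG from 4 to 6, and the CA1 median from 0.20 to 0.34. The family genes ran from 4 to 12 for tTA against DN in CA1, and for rTg4510 against tTA from 0 to 5 in CA3 and 0 to 2 in DG. For single genes and the microglia list, 1974 recalculated values kept their call or stayed within the spread between mice, 16 moved and 6 DN subfield differences came to pass the threshold.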
